A study of Homo sapiens with 15 samples.

Results

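The miR-34 family is a group of small miRNAs made from 3 hairpins, miR-34a, miR-34b and miR-34c, each of which can give a mature miRNA from its 5p and its 3p arm. Members were the listed miRNAs whose name starts with miR-34a-, miR-34b- or miR-34c-. Of the 6 mature names, 5 were analysed, out of 2424 miRNAs over both sets of counts: miR-34a-3p, miR-34b-5p, miR-34b-3p, miR-34c-5p and miR-34c-3p in the knockdown (5 of 2418 miRNAs) and the same without miR-34b-3p in the RIP-seq counts (4 of 2189). miR-34a-5p was not analysed here in either experiment, and neither was miR-34b-3p in the RIP-seq.

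The study asked whether miRNA levels depend on the m6A demethylase FTO and whether miRNAs carry N6-methyladenosine (m6A). Small RNA came from FTO1C1, FTO2D4 and FTO3C3, which are clones derived from the human embryonic kidney line HEK293 (uninduced Flp-In 293 T-Rex derivatives). Each clone was transfected with 10 nM scrambled siRNA (a control without a human target) or with FTO-specific siRNA and harvested after 48 h, which gave 3 libraries per group. Untreated cells of the same clones gave 3 libraries of small RNA before precipitation (input), 3 of RNA pulled down by an antibody against m6A (m6A samples) and 3 of RNA pulled down by a mouse IgG (IgG samples). Each clone contributed 1 library to each of the 5 groups, so the spread within a group is that between clones and includes noise between libraries. FTO mRNA has no value among these counts, so the knockdown itself was not checked here.

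The genes of the family are known targets of the transcription factor p53, and their 5p miRNAs are known to repress mRNAs for cell cycle and survival proteins such as CDK6, MYC and BCL2. miR-34b and miR-34c are processed from a shared primary transcript, whereas miR-34a has its own. Usually 1 arm of a hairpin, the guide, enters an Argonaute protein, and most copies of the other, the passenger, are lost. HEK293 cells carry early genes of an adenovirus whose products bind p53, and p53 itself has no value among miRNA counts. The seed of a miRNA, bases 2 to 8, pairs with target mRNAs, and the 5p miRNAs of the miR-449 family are relatives whose seeds overlap with those of the miR-34 5p miRNAs.

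The mature sequences below, from RefSeq (GRCh38.p14), are shown because the values below differ by arm and because the seeds show which members can pair with the same targets. Capitals mark the seed.

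hsa-miR-34b-5p: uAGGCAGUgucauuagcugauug
hsa-miR-449c-5p: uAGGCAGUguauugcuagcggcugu
hsa-miR-449a: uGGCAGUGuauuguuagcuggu
hsa-miR-449b-5p: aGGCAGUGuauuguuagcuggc
hsa-miR-34a-3p: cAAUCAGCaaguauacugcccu
hsa-miR-34b-3p: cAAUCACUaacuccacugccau
hsa-miR-34c-3p: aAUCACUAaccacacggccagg

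miR-34b-5p and miR-449c-5p had the same seed, and miR-449a and miR-449b-5p shared another, which is the same stretch read 1 base further along. The 3p members had 3 different seeds. miR-34b-3p and miR-34c-3p were identical at 17 of 21 positions when shifted by 1 base, with a longest shared run of 10 bases. miR-34a-3p matched miR-34b-3p at 16 of 22 positions, with a longest shared run of 6 bases. Reads were assigned by exact matches to mature sequences, and a read can be covered by several matches, so how far reads of these relatives were told apart was not tested.

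The miR-34b hairpin lies on chr11:111512938-111513021, plus strand (GRCh38.p14), and is printed with both mature arms in capitals to show where the 5p and the 3p miRNA sit.

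MIR34B hairpin: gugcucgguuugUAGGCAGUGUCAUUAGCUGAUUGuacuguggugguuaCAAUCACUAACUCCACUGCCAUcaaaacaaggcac

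Within it, miR-34b-5p occupies chr11:111512950-111512972 and miR-34b-3p chr11:111512987-111513008. The miR-34c hairpin follows on the same strand, 417 bases further, and miR-34c-3p lies at chr11:111513484-111513505. RefSeq places both hairpins inside the lncRNA gene MIR34BHG and within the span of the protein-coding gene BTG4. miR-34a-3p lies at chr1:9151693-9151714, minus strand, inside the lncRNA gene MIR34AHG. Exon and intron limits of these host genes were not used here.

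The m6A consensus of mRNA has the core GAC or AAC, and these letters were searched on the mature strand. miR-34b-3p and miR-34c-3p each held AAC, and miR-34a-3p and miR-34b-5p held neither. None of these members held the longer consensus RRACH, where R is A or G and H is A, C or U. The sequence of miR-34c-5p was not analysed here. Among the 1923 miRNAs of the RIP-seq counts with a RefSeq sequence, 39.2% held GAC or AAC and 22.9% held RRACH.

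The libraries held between 186446 and 4973238 reads on miRNAs, and counts were divided by that total and multiplied by 1000000 (RPM). The shallowest library was the IgG sample of FTO3C3, where 1 read is worth 5.36 RPM, against 0.201 RPM in the deepest, the m6A sample of the same clone. In the RIP-seq, one entry, miR-6080, took between 15.5% and 71.6% of the reads of a library and so weighs on every RPM value. The median miRNA moved as well: its log2 fold change was 0.29 after FTO knockdown, 0.83 for m6A over IgG, 1.65 for m6A over input and 0.49 for IgG over input. TMM factors, a scaling that brings the bulk of miRNAs to no change, remove most of this shift. Intervals on shares and ratios cover counting error only, since PCR reads are not independent molecules.

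Apart from miR-34c-5p, the members lay near or below the median miRNA, which had 15.1 RPM with scrambled siRNA. In that group, the most abundant member was miR-34c-5p with 42.9, 56.0 and 57.8 RPM in FTO1C1, FTO2D4 and FTO3C3, from 156, 138 and 115 reads. It ranked 503rd of 2418 miRNAs by mean RPM, and it was the single member that reached 15 RPM in each of the 3 scrambled siRNA libraries, a level reached by 42.7% of all listed miRNAs. miR-34a-3p followed with 17.3, 21.1 and 13.1 RPM. The arms of miR-34b were lower still, at 11.3, 11.0 and 9.54 RPM for miR-34b-5p and 4.40, 4.46 and 4.02 RPM for miR-34b-3p. miR-34c-3p had 2.47, 3.65 and 6.53 RPM, so that the passenger arms of miR-34b and miR-34c did not differ beyond their spread, whereas the libraries of the other members did not overlap with those of their neighbours in this order. The 5 members together made up 78.3 to 96.2 RPM.

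After FTO knockdown, none of the 5 members was called higher or lower. edgeR's quasi-likelihood test with the clone as a block, over 2374 miRNAs, called 0 members at a Benjamini-Hochberg adjusted p under 0.05. The lowest unadjusted p was 0.117, and DESeq2 also called 0, with an adjusted p for miR-34c-5p alone (0.389). In that comparison 5.48% of all tested miRNAs were called, 4.97% higher and 0.505% lower (118 and 12, or 21 and 34 with TMM factors). The RPM of the groups overlapped for each member, while 26.3% of all listed miRNAs were higher and 1.94% lower without overlap. By the rule of the study (15 RPM in each library of one group and a mean ratio over 2 or under 0.5) 0 members were increased or decreased, against 1.45% and 0.165% of all. The median log2 fold change of the members was -0.08, against 0.29 over all tested miRNAs, and -0.37 with TMM factors. Standard errors (SE) and adjusted p below are from the edgeR fit.

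miR-34c-5p, the most abundant member, had 52.9, 51.1 and 43.1 RPM with FTO siRNA. It was higher in FTO1C1 (ratio to scrambled siRNA 1.23) and lower in FTO2D4 and FTO3C3 (0.913 and 0.746). The mean was 52.2 ± 8.13 RPM with scrambled siRNA and 49.0 ± 5.22 RPM with FTO siRNA (SD, n = 3 clones), and the groups overlapped. Its log2 fold change was -0.08 with an SE of 0.21 (edgeR adjusted p = 0.827), and without FTO3C3 it was 0.09.

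miR-34a-3p, the passenger arm of miR-34a, had 21.6, 22.5 and 17.5 RPM after knockdown. It was above scrambled siRNA in all 3 clones, with ratios of 1.24, 1.07 and 1.34, but the groups overlapped. Its log2 fold change of 0.27 (SE 0.20, edgeR adjusted p = 0.403) was close to the median of all miRNAs and was -0.04 with TMM factors.

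miR-34b-5p had 24, 31 and 45 reads after knockdown against 41, 27 and 19 with scrambled siRNA. The ratios were 0.612, 0.817 and 1.22, so the clones did not move the same way. miR-34b-3p gave ratios of 0.719, 0.906 and 1.03 from at most 16 reads in any library. Their log2 fold changes were -0.25 and -0.20 with SEs of 0.26 and 0.33 (edgeR adjusted p = 0.566 and 0.718).

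miR-34c-3p had 43, 14 and 19 reads with FTO siRNA and 9, 9 and 13 with scrambled siRNA. In RPM this was 12.4, 4.04 and 4.90 with FTO siRNA. FTO1C1 gave a ratio of 4.99 (95% counting interval 2.40 to 11.7), FTO2D4 gave 1.11 and FTO3C3 gave 0.751, so the difference between the group means rested on 1 clone. The log2 fold change was 0.83 with an SE of 0.48 (edgeR adjusted p = 0.299), and it was -0.16 without FTO1C1. miR-34c-3p had the largest fold change and the largest standard error of the 5 members.

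**Figure D1:**
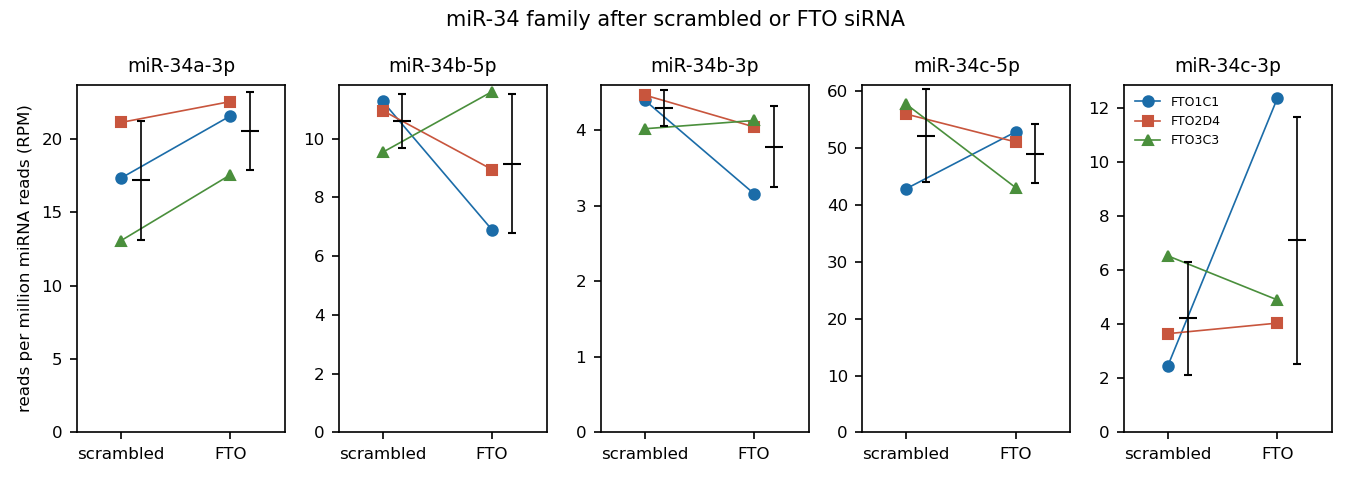
Levels of the 5 analysed members after scrambled or FTO siRNA, as RPM on linear axes from 0 that differ between panels. Points are single libraries, lines join the libraries of a clone, and the black bars give mean and SD (n = 3 clones). The 3 clones rise together for miR-34a-3p alone, and the steepest line is miR-34c-3p in FTO1C1, from 2.47 to 12.4 RPM.

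The order of the members was different in the untreated input libraries, which come from a separate experiment and were not tested against the siRNA libraries. miR-34a-3p had 22.7, 34.3 and 15.3 RPM and miR-34c-5p 34.1, 24.0 and 13.3 RPM, and the levels of these leading members overlapped. miR-34c-3p had 7.10, 1.37 and 2.67 RPM, from 10, 2 and 4 reads. miR-34b-5p had the lowest mean, with 2, 3 and 3 reads or 1.42, 2.06 and 2.00 RPM, and 0.731% of the listed miRNAs had a lower mean. Its levels overlapped with those of miR-34c-3p. In the input, miR-34b-5p and miR-34c-3p were thus close to the limit of what these libraries can count.

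The IgG samples, the control for unspecific binding, gave a different order. miR-34c-3p led there with 35.1, 27.97 and 32.2 RPM (26, 22 and 6 reads), all above its input levels. miR-34c-5p had 4.05, 6.36 and 10.7 RPM from 3, 5 and 2 reads. miR-34b-5p had 3, 1 and 1 reads, and miR-34a-3p had 2, 2 and 0 reads.

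Compared directly, the IgG samples held more miR-34c-3p and less miR-34a-3p and miR-34c-5p than the input. Of the 4 listed members 3 passed the filter on low counts, and miR-34b-5p did not. In this comparison 58.6% of the 1941 tested miRNAs were called, 36.8% higher and 21.8% lower (714 and 423, or 559 and 586 with TMM factors). Without overlap of the groups, 38.3% of all listed miRNAs were higher, miR-34c-3p among them, and 22.5% lower, miR-34a-3p and miR-34c-5p among them. The filter kept miR-34a-3p through its input libraries alone and miR-34c-3p through its IgG libraries alone. It kept miR-34c-5p through its 3 input libraries, since only 1 of its IgG libraries was over 9.11 RPM. Each thus passed only through the group where it was higher, and the calls are not counted as support. Refitted with no filter, all 3 kept their calls.

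The rise of miR-34c-3p over input was 4.94-fold in FTO1C1 (counting interval 2.30 to 11.5), 20.4-fold in FTO2D4 (5.02 to 179) and 12.1-fold in FTO3C3 (2.86 to 58.2). The log2 fold change was 3.14 with an SE of 0.59 (edgeR adjusted p = 4.36e-07). Over the 9 alternatives it ran from 2.61 to 4.24. miR-34a-3p fell by 3.49 on the log2 scale (SE 0.74, edgeR adjusted p = 9.43e-06) and its log2 fold change ran from -4.01 to -2.32 over the 9 alternatives. miR-34c-5p fell by 2.03 (SE 0.63, edgeR adjusted p = 0.00282), but without FTO1C1 its log2 fold change was -1.35 (edgeR adjusted p = 0.211) and without miR-6080 in the totals -0.89 (edgeR adjusted p = 0.163).

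**Figure D2:**
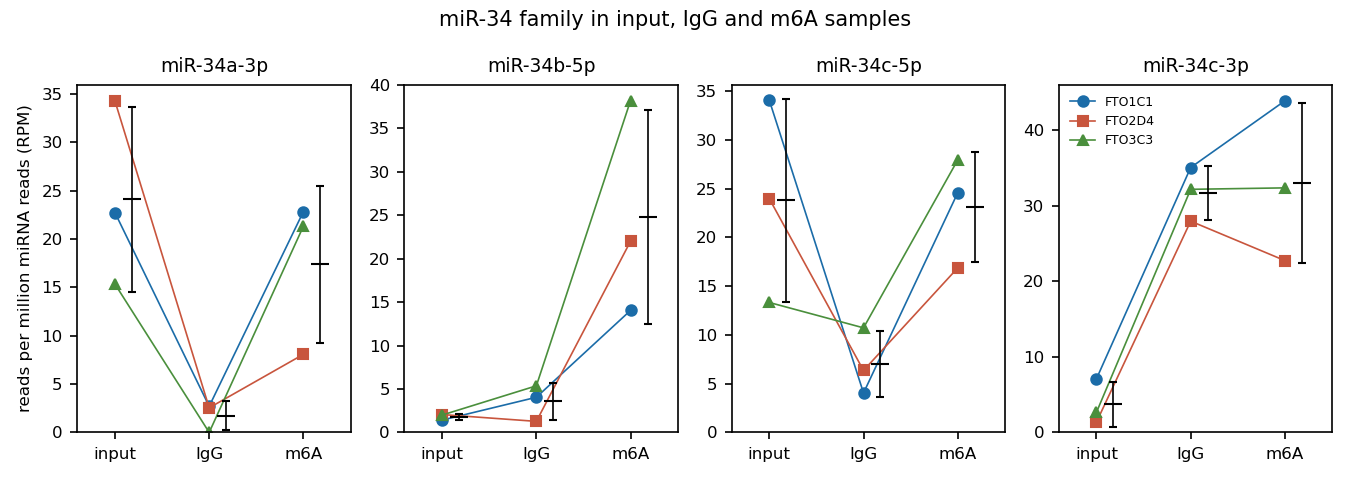
Levels of the 4 members in input, IgG and m6A samples, as RPM on linear axes from 0 that differ between panels. Points are single libraries, lines join the libraries of a clone, and the black bars give mean and SD (n = 3 clones). miR-34a-3p and miR-34c-5p dip in the IgG samples, miR-34b-5p is highest in the m6A samples, and miR-34c-3p is above input in both precipitates, at a mean of 31.7 RPM with IgG and 33.01 RPM with the m6A antibody.

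In the m6A samples the 4 members lay closer together, and neighbours in the order overlapped. miR-34c-3p had 43.9, 22.7 and 32.4 RPM, miR-34b-5p 14.0, 22.0 and 38.2, miR-34c-5p 24.6, 16.9 and 27.9, and miR-34a-3p 22.8, 8.07 and 21.3. None of them reached 100 RPM in all 3 m6A libraries, as 20.3% of the listed miRNAs did. By the rule of the study (100 RPM or more, and m6A over IgG 2 or more on average) therefore 0 of the 4 members were enriched, against 11.8% of all listed miRNAs. With a cutoff of 15 RPM the rule took miR-34c-5p, and 44.2% of all.

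The comparison of m6A with IgG samples asks which miRNAs the m6A antibody held beyond the control. edgeR's quasi-likelihood test called 39.8% of the 2054 tested miRNAs, 38.6% higher and 1.27% lower (792 and 26, or 453 and 302 with TMM factors). Of the 3 members tested, miR-34b-5p and miR-34c-5p were called higher and miR-34c-3p was not called. Both called members passed the filter of 13.1 RPM through their m6A libraries alone, so these calls are not counted as support. They were also called with no filter (edgeR adjusted p = 0.00751 and 0.0264).

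For miR-34b-5p there were 8, 30 and 190 reads after the m6A antibody against 3, 1 and 1 after IgG. The ratio was 3.47 in FTO1C1 (counting interval 0.833 to 20.3), 17.3 in FTO2D4 (2.88 to 707) and 7.12 in FTO3C3 (1.26 to 283), and the groups did not overlap, as for 45.9% of all listed miRNAs in this direction. The log2 fold change was 2.78 (SE 0.63, edgeR adjusted p = 0.00754) and 2.03 with TMM factors (adjusted p = 0.0323). DESeq2 gave 2.03 with an adjusted p of 0.0861, and without FTO2D4 miR-34b-5p no longer passed the filter.

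For miR-34c-5p there were 14, 23 and 139 reads after the m6A antibody against 3, 5 and 2 after IgG, or ratios of 6.08, 2.66 and 2.61, and the groups did not overlap. Its log2 fold change was 1.79 (SE 0.53, edgeR adjusted p = 0.025). The call was lost with any 1 clone left out, where the log2 fold change lay between 1.39 and 2.10 and the adjusted p by edgeR was 0.171 without FTO1C1, 0.0673 without FTO2D4 and 0.0629 without FTO3C3. With TMM factors it was 1.02 (edgeR adjusted p = 0.159), and with DESeq2 1.00 (adjusted p = 0.345).

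miR-34c-3p, the partner arm of the same hairpin, was counted 25, 31 and 161 times after the m6A antibody against 26, 22 and 6 times after IgG. The ratios were 1.25, 0.813 and 1.01, with a mean of 1.02 ± 0.220 (SD, n = 3 clones). Its log2 fold change was 0.01 with an SE of 0.38 (edgeR adjusted p = 0.985), below the median of all miRNAs, and it was -0.75 with TMM factors (edgeR adjusted p = 0.142). The RPM of both groups overlapped.

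miR-34a-3p was not tested, since 2 of its m6A libraries and none of its IgG libraries were above 13.1 RPM. Its m6A libraries held 13, 11 and 106 reads. The ratio to IgG was 8.46 in FTO1C1 (counting interval 1.92 to 77.2) and 3.18 in FTO2D4 (0.693 to 29.5). In FTO3C3, with 0 reads in the IgG library, the ratio was 1.32 when the IgG count was set to 3 reads. The lower limit of its counting interval was 1.06. The lowest m6A library was above the highest IgG library. In the fit with no filter its log2 fold change was 2.72 (SE 0.74, edgeR adjusted p = 0.0173).

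Against input, miR-34b-5p and miR-34c-3p were higher in the m6A samples, and miR-34a-3p and miR-34c-5p were not called. All 4 members were tested. Of all 2174 tested miRNAs 77.3% were called, 66.8% higher and 10.5% lower (1452 and 229, or 575 and 614 with TMM factors), so most miRNAs were higher here. Without overlap of the groups, 67.9% of all listed miRNAs were higher, miR-34b-5p and miR-34c-3p among them, and 11.1% lower. The median log2 fold change of the members was 1.66, against 1.65 over all. The m6A libraries of this comparison are those compared with IgG above.

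miR-34b-5p rose from 1.82 ± 0.352 RPM in the input to 24.8 ± 12.3 RPM in the m6A samples (SD, n = 3 clones). The ratios were 9.89 (counting interval 1.97 to 95.6), 10.7 (3.33 to 54.8) and 19.1 (6.44 to 93.5), and their lower limits were above 1 in each clone. The log2 fold change was 3.69 (SE 0.54, edgeR adjusted p = 1.03e-06) and 2.14 with TMM factors (edgeR adjusted p = 0.00422). miR-34b-5p passed the filter of 6.97 RPM through its m6A libraries alone, so the call is not counted as support, and with no filter its adjusted p was 1.56e-06 by edgeR.

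miR-34c-3p rose from 3.71 ± 3.004 to 33.01 ± 10.6 RPM, with ratios of 6.18, 16.6 and 12.1. The log2 fold change was 3.25 (SE 0.48, edgeR adjusted p = 1.05e-06) and 1.71 with TMM factors (edgeR adjusted p = 0.00815). For miR-34c-3p, 3 m6A libraries but only 1 input library were over the filter of 6.97 RPM, so this call is not counted as support either. With no filter its adjusted p was 1.39e-06 by edgeR. Over the 9 alternatives the log2 fold changes ran from 1.71 to 3.74 for miR-34c-3p and from 2.12 to 4.15 for miR-34b-5p. For miR-34c-3p, IgG over input gave 3.14, from the same input libraries.

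miR-34c-5p and miR-34a-3p had log2 fold changes of 0.06 (SE 0.41) and -0.47 (SE 0.45) over input, both below the median of 1.65 (edgeR adjusted p = 0.890 and 0.347). The ratios of miR-34c-5p were 0.721, 0.704 and 2.10, and those of miR-34a-3p 1.00, 0.236 and 1.39. With TMM factors the log2 fold changes were -1.48 and -2.03, both called lower (edgeR adjusted p = 0.00485 and 0.00328), and DESeq2 also called them lower, at -1.52 and -2.07 (adjusted p = 0.00402 and 0.000361).

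**Figure D3:**
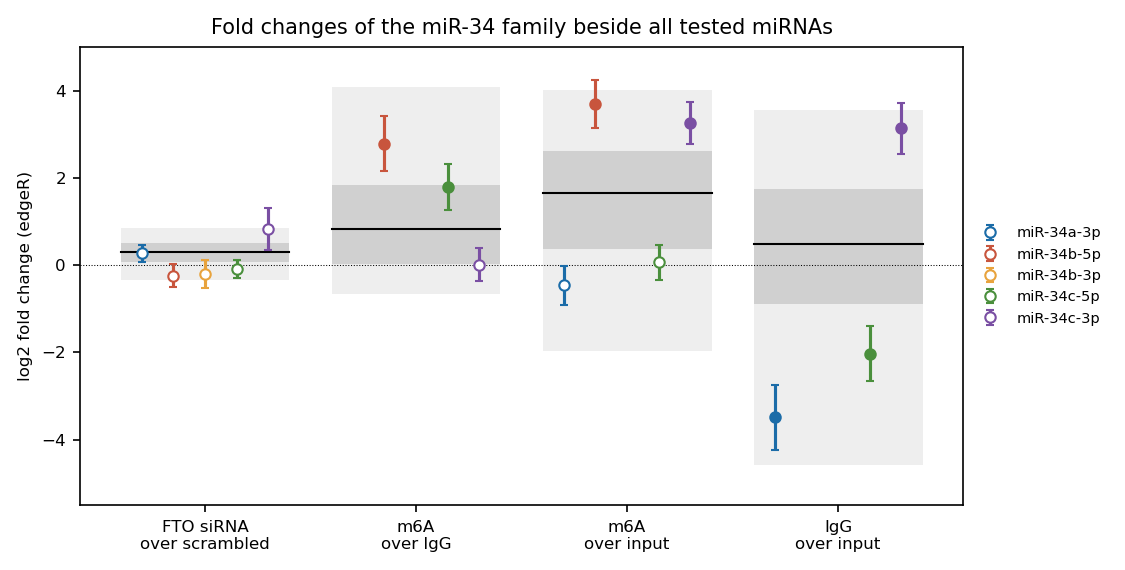
Log2 fold changes of the members by edgeR (points, with standard errors) in the 4 comparisons, beside all tested miRNAs (light bars from the 5th to the 95th percentile, dark bars from the 25th to the 75th, and a line at the median). Filled points have an adjusted p under 0.05. No member is filled after FTO knockdown, miR-34b-5p is filled over both IgG (2.78) and input (3.69), and miR-34c-3p is filled over input in both precipitates (3.25 and 3.14) and at 0.01 between them.

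The ratio of the arms within a hairpin does not depend on the library totals. The 5p arm of miR-34c made up 94.5%, 93.9% and 89.8% of the miR-34c reads in the scrambled siRNA libraries, and 81.1%, 92.7% and 89.8% after knockdown. In FTO1C1 the Wilson 95% interval was 90.0% to 97.1% with scrambled siRNA and 75.5% to 85.6% with FTO siRNA, and in the other clones the intervals overlapped. On the log2 scale, with 0.5 added to each count, the ratio of 5p to 3p differed by -1.96, -0.25 and 0.01 between FTO and scrambled siRNA. Over the 3 clones this was -0.73 ± 1.07 (SD, exact two-sided sign-flip permutation test, p = 0.5, adjusted p = 0.75 over 3 such comparisons).

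miR-34b kept a flatter ratio. Its 5p arm made up 71.9%, 71.1% and 70.4% of the miR-34b reads in the scrambled siRNA libraries and 68.6%, 68.9% and 73.8% after knockdown. The log2 ratio differed by -0.04 ± 0.27 (SD, n = 3 clones, exact sign-flip permutation test, p = 1.0).

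In the RIP-seq libraries the share of the miR-34c 5p arm was lower in both precipitates than in the input. The 5p arm held 82.8%, 94.6% and 83.3% of the miR-34c reads in the input, but 35.9%, 42.6% and 46.3% in the m6A samples and 10.3%, 18.5% and 25% in the IgG samples. No share of a precipitate overlapped with the input. The Wilson intervals of the 3 m6A libraries each included 50%, but all 3 shares were below 50%. Whether the 3p arm led over the 3 libraries together was not tested. The shares rest on 24 to 58 reads in the input, 39 to 300 in the m6A samples and 8 to 29 in the IgG samples, and the widest Wilson interval, that of FTO3C3 with IgG, ran from 7.15% to 59.1%. The log2 ratio of 5p to 3p differed by -3.02, -4.25 and -2.40 between m6A samples and input in the 3 clones, a mean difference of -3.22 ± 0.94 (SD). The exact sign-flip permutation test gave p = 0.25 (adjusted p = 0.75), the smallest p that 3 pairs allow, so this test cannot reach 0.05. Between IgG and input the mean difference was -4.85 ± 1.17, and it was not tested because 1 IgG library held 8 reads on both arms.

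**Figure D4:**
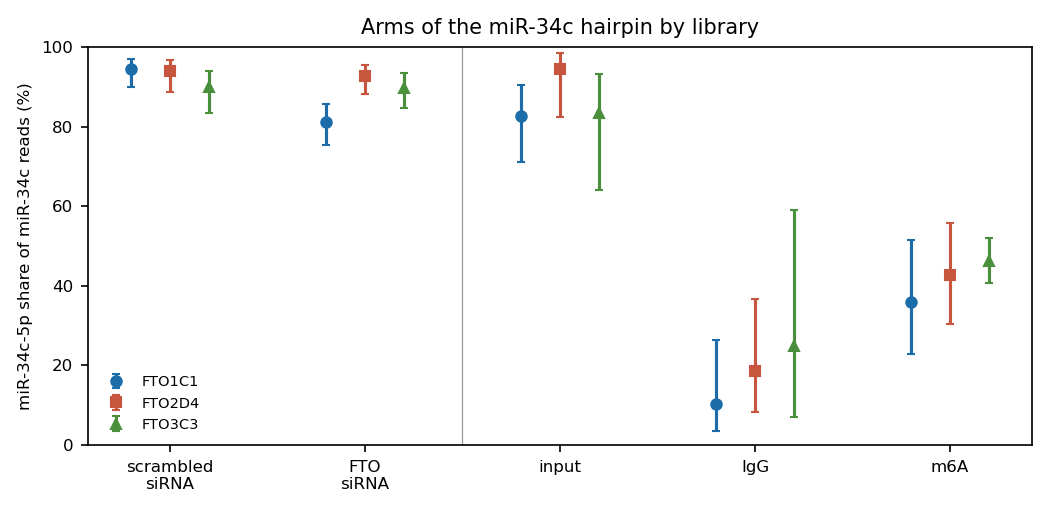
Share of miR-34c-5p among the reads of both miR-34c arms (percent) in each of the 15 libraries, with Wilson 95% intervals for counting error. The siRNA experiment is left of the grey line. Shares lie between 81.1% and 94.6% in siRNA and input libraries, between 35.9% and 46.3% in the m6A samples and between 10.3% and 25% in the IgG samples.

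The 4 members analysed in the RIP-seq together made up 33.3 to 65.3 RPM in the input, 38.1 to 48.3 RPM in the IgG samples and 69.7 to 120 RPM in the m6A samples. After FTO knockdown the 5 members analysed there made up 81.3 to 96.8 RPM, within the range with scrambled siRNA but for 1 library.

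Of the miR-449 relatives, miR-449c-5p, which has the seed of miR-34b-5p, had 115, 92.5 and 60.8 RPM in the scrambled siRNA libraries and 78.4, 65.0 and 36.9 after knockdown, and was lower in all 3 clones (ratios 0.684, 0.702 and 0.607). The groups overlapped. Its log2 fold change was -0.59 (SE 0.18, edgeR adjusted p = 0.0809). With TMM factors it was -0.88 and was called lower (edgeR adjusted p = 0.0245), as by DESeq2 (-0.89, adjusted p = 0.00404). miR-449a and miR-449b-5p had log2 fold changes of -0.24 and -0.29 with SEs of 0.20 and 0.24 (edgeR adjusted p = 0.458 and 0.461), and miR-449b-3p, with at most 9 reads, was below the filter. Of the 3 relatives tested after knockdown, edgeR thus called 0 (5.48% of all tested miRNAs), and 1 had an unadjusted p under 0.05, as had 621 of all 2374. In the RIP-seq, miR-449c-5p had a log2 fold change of 1.63 over IgG (SE 0.57, edgeR adjusted p = 0.0463) and 0.84 over input (SE 0.40, edgeR adjusted p = 0.0582). Over input the direction turned with TMM factors, to -0.70 (edgeR adjusted p = 0.102), and with DESeq2, to -0.73 (adjusted p = 0.168). Over IgG it was 0.87 with TMM factors (edgeR adjusted p = 0.215), 0.81 without FTO2D4 (edgeR adjusted p = 0.248) and 1.81 without FTO3C3 (edgeR adjusted p = 0.118). miR-449c-3p, and the other relatives in the RIP-seq, were not analysed here.

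Other miRNAs tied to p53 were taken as a list of 11 names, of which 10 were analysed (miR-145-5p was not). After FTO knockdown, 0 were called higher and 2 lower, against 4.97% and 0.505% of all tested miRNAs. miR-215-5p, which is reported to be raised by p53, changed by -0.72 on the log2 scale (SE 0.15, edgeR adjusted p = 0.0289), and its adjusted p was 0.218 without FTO1C1 and 0.0843 without the clone block. miR-16-5p, a repressor of cell cycle genes, had -0.49 (SE 0.12, edgeR adjusted p = 0.0484), and this call was lost without FTO1C1, FTO2D4 or FTO3C3 (edgeR adjusted p = 0.210, 0.138 and 0.063) and without the clone block (0.228). With TMM factors miR-215-5p and miR-16-5p were called lower, at -1.02 and -0.78 (edgeR adjusted p = 0.00652 and 0.0326). DESeq2 called both lower (adjusted p = 4.39e-06 and 0.000794), and miR-192-5p as well (adjusted p = 0.0438). The median of the 10 was -0.03, against 0.29 over all tested miRNAs. Over IgG, 6 of the 9 tested were called higher and 0 lower (5 and 1 with TMM factors), against 38.6% and 1.27% of all, and the median was 3.28 against 0.83 over all. Here miR-107 and miR-15a-5p passed the filter of 13.1 RPM through their m6A libraries alone. miR-605-5p, the 1 called lower with TMM factors, passed it through its IgG libraries alone. Calls of these miRNAs over IgG are not counted as support. The counts and the median over IgG include them and are not read as differences from all miRNAs. miR-107 had 50, 84 and 257 reads in the m6A samples and 0, 1 and 0 with IgG, so the size of its change is not given. miR-215-5p had a log2 fold change of 6.23. miR-16-5p, miR-192-5p, miR-15a-5p and miR-200c-3p followed with 4.56, 3.37, 3.28 and 1.18. Of these, miR-200c-3p was not called with TMM factors (0.42, edgeR adjusted p = 0.37) or by DESeq2 (0.39, adjusted p = 0.54). Over input, 3 were called higher and 6 lower in the m6A samples (1 and 7 with TMM factors), against 66.8% and 10.5% of all, with a median of -1.20 against 1.65. IgG samples held 7 of the 10 at lower levels than the input and 0 at higher ones, against 21.8% and 36.8% of all, with a median of -3.0 against 0.49. In that comparison miR-107 and miR-141-3p passed the filter of 9.11 RPM through their input libraries alone. miR-15a-5p and miR-194-5p passed it through their input libraries, with only 1 IgG library each over it. For m6A against input, miR-141-3p passed at 6.97 RPM with all its input libraries but only 2 of its m6A libraries over it. Calls of these miRNAs there are not counted as support. The counts and medians over input include them and are not read as differences from all miRNAs. The members' own medians were 1.79 over IgG (3 tested), 1.66 over input and -2.03 for IgG against input (3 tested).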

How the data were processed

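The deposited files hold counts of reads per mature miRNA, not normalized. The authors' Methods name cutadapt for adapter removal, a limit on read length and assignment by exact matches to mature human miRNAs of miRBase, with no genome. From these counts, RPM of the miRNA total, ratios within clones and arm shares were computed. Counts were tested with edgeR (quasi-likelihood, clone as block, filterByExpr with a minimum count of 10, only the 6 libraries compared), with adjustment over all miRNAs tested. Members, lists, rules and tests were chosen with earlier results of these data known. Named miRNAs were all members, the members of 2 lists (miR-449 relatives and other p53-linked miRNAs) that were called, or all where a list has 5 or fewer, and the 3 miRNAs most alike to the leading member. With the clone as block, the p-values weigh the difference within clones against its spread over 3 clones, which includes noise between libraries.

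Each clone gave a library to every group, which pairs the libraries. Deviations from the group means correlated at 0.105 to 0.175 within clones between the siRNA groups, and between -0.069 and 0.069 among the RIP-seq groups. Libraries of a group differed by more than sampling noise (chi-square per degree of freedom at least 6.11). The fits were tested on simulated data. Software used was Python 3.11.15 (scipy 1.17.1, pandas 2.3.3, numpy 2.4.6, matplotlib 3.10.9) and R 4.3.3 (DESeq2 1.42.0, limma 3.58.1, edgeR 4.0.16). Alternatives were TMM factors, DESeq2, no filter, no clone block, each clone left out, totals without miR-6080, all 9 RIP-seq libraries in 1 fit, other cutoffs of the rules and another offset for arm ratios.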

Additional observations from a re-analysis of the deposited data

How the results depend on the processing

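Low counts limit these results: members had 0 to 26 reads in an IgG library and 2 to 50 in an input library. After FTO knockdown, 0 members were called under all 7 alternatives (DESeq2 gave an adjusted p for miR-34c-5p alone). For m6A over IgG, where 2 members were called higher, TMM factors left 1, DESeq2 0 and totals without miR-6080 0, since those totals put miR-34b-5p and miR-34c-5p below the filter. With a clone left out it was 1 each time (miR-34a-3p without FTO2D4). For m6A against input, 0 members were called lower, but 2 with TMM factors and 2 with DESeq2. For IgG against input, 2 were called lower, 1 to 2 with a clone left out and 1 with totals without miR-6080. The rule for enriched miRNAs took 0 members and, at 15 RPM, 1. The cause was not tested.

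The log2 fold change of miR-34a-3p after knockdown, 0.27, was -0.04 with TMM factors and -0.03 with DESeq2. That of miR-34c-3p over IgG, 0.01, was -0.75 with TMM factors, -0.78 with DESeq2 and -0.69 with totals without miR-6080. That of miR-34c-5p over input, 0.06, was -1.48 with TMM factors, -1.52 with DESeq2 and -0.02 without the replicate block, the only reversal without the block, which changed no call of a member. With each clone left out, the log2 fold changes after knockdown ran from -0.28 to 0.09 for miR-34c-5p and from -0.16 to 1.49 for miR-34c-3p. In m6A samples they ran from -0.17 to 0.19 for miR-34c-3p over IgG, from -1.07 to 0.26 for miR-34a-3p over input and from -0.49 to 0.34 for miR-34c-5p over input. The arm difference of miR-34b, -0.04, ran from -0.19 to 0.06.

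Over all miRNAs, the 130 calls after knockdown became 55 with TMM factors, 41 without the replicate block, 0 without FTO1C1 (327 at an unadjusted p under 0.05) and 201 without FTO3C3. The 818 calls over IgG became 470 without FTO2D4, and the 1681 calls of m6A against input 1086 with DESeq2.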

Other observations

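Over the 15 libraries, the miRNAs whose log2(RPM + 1) was most like that of miR-34c-5p, among 1232 miRNAs with a mean of at least 15 RPM in both experiments, were miR-548b-5p, miR-6826-5p and miR-539-3p, with Pearson correlations of 0.946, 0.944 and 0.944. The points share libraries and totals and fall into the 5 groups. Within the family the correlation with miR-34c-5p was 0.722 for miR-34a-3p, 0.407 for miR-34b-5p and -0.543 for miR-34c-3p, the other arm of its own hairpin.

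miR-2682-5p has the seed AGGCAGU of miR-34b-5p in RefSeq and was chosen after these data had been seen. It had 29.9, 44.0 and 49.7 RPM in the m6A samples, 12.1, 19.1 and 26.8 RPM in the IgG samples and 11.4, 13.0 and 9.33 RPM in the input. Its log2 fold change was 1.88 over input (SE 0.40, edgeR adjusted p = 0.000124) and 1.14 over IgG (SE 0.39, edgeR adjusted p = 0.0434), and after FTO knockdown it was 0.44 (SE 0.20, edgeR adjusted p = 0.205). With TMM factors neither was called, at 0.33 over input (edgeR adjusted p = 0.387) and 0.38 over IgG (edgeR adjusted p = 0.455). With 1 clone left out, the log2 fold change over IgG was no longer called, with an edgeR adjusted p of 0.159 without FTO1C1, 0.144 without FTO2D4 and 0.0894 without FTO3C3.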
